A study of Mus musculus with 6 samples.

Results

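The genes described here are 43 markers of the early embryonic lineages, measured in mouse embryonic stem cells whose Dido3 protein is either intact or cut short at its C-terminus. They were chosen by name: 12 genes of the primitive streak and its first derivatives, 15 of later mesoderm, heart and blood, and 16 of neuroectoderm and neurons. All 43 were found among the 18193 genes that the arrays measure under a single gene symbol. The control group consisted of 3 wild-type arrays. The other group, called exp in the labels, consisted of 3 arrays of cells with the genotype Dido3deltaCT, in which Dido3, the long protein product of Dido1, is truncated. Both groups were embryonic stem cells kept in self-renewal medium with leukemia inhibitory factor (LIF) and cultured side by side, and each group is labelled as 3 biological replicates. How many separate cell lines stand behind each group, and how the truncated allele was made, is not stated in the labels, so p-values measure the spread between these cultures.

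When embryonic stem cells leave the pluripotent state, or when the embryo gastrulates, epiblast cells that pass through the primitive streak switch on T-box, homeobox and bHLH regulators and become mesoderm and endoderm. Cells that stay outside the streak become neuroectoderm, marked first by Sox1, Pax6 and nestin and later by neuronal cytoskeleton genes. In cells held in LIF most of these regulators are silent, with many of their promoters rich in CG dinucleotides and kept in a poised state by Polycomb complexes.

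Values are log2 expression values, so a difference of 1 is a 2-fold change. Genes with a mean over the 6 arrays above 4.82, the median of all probe sets, are called expressed, and the rest are said to lie at the floor. Differences are truncated minus wild type, with the standard error (SE) of limma, and a gene counted as changed at a limma adjusted p under 0.05 over all genes. The stem cell label held: 12 of 12 pluripotency markers were expressed, with a mean of 10.81 ± 0.13 for wild type and 10.80 ± 0.04 for the truncated group (SD, n = 3 each). Of the 12, Fgf4 fell by 1.46 (limma adjusted p = 0.0329) with the probe set used, while another of its probe sets, 1449729_at, rose by 5.94. The equal means hold markers that differ both ways: the groups stood apart for 10 of the 12, 7 higher and 3 lower in truncated arrays, against 22.4% of all genes. Of the targeted gene, the Dido1 probe set 1456405_at stood at 8.16, 8.42 and 8.55 in wild-type and at 6.74, 7.27 and 6.62 in truncated arrays. A second, 1437647_at, was lower by a difference of −1.47, while 1437182_at was higher by 0.68 (limma adjusted p over all probe sets = 0.0721) and the other 2 of the 5 differed by 0.05 and 0.03. Where they lie relative to the removed part was not analysed here. The Y-linked gene Eif2s3y averaged 8.58 ± 0.14 for wild type and 3.68 ± 0.23 for the truncated group (SD, n = 3 each), so the effects of the truncation and of a difference in Y-linked RNA cannot be told apart.

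The level of fibroblast markers, called fibroblast RNA below, differed between arrays within each group. This matters for mesoderm genes that fibroblasts also express. The cell source of these transcripts was not tested. The mean of 24 fibroblast markers, 22 of them expressed, fell to 5.98 for wild-type replicate 3 and 7.21 for truncated replicate 2, while the remaining 4 arrays spanned 8.40 to 9.06. The 2 markers below the limit were Lum and Fap. The summed log2 level of the list ran from 143.6 to 217.5 in wild-type and from 173.0 to 202.0 in truncated arrays. That pair also carried more poly-A spike-in control signal, averaging 12.1 and 12.5, where the remaining 4 arrays lay between 6.12 and 7.85. They are called the spike-high pair and the 4 spike-low arrays, and the pair has 1 array from each group. The labels name no batch, and the spike-in batch below means only this split by control signal. Averaged by group, the fibroblast list stood at 7.94 ± 1.70 and 8.01 ± 0.69 (SD, n = 3 each; exact permutation p = 1, two-sided, where 3 against 3 arrays cannot go below 0.1). In bulk RNA, fewer cells of a type and less RNA per cell cannot be told apart.

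Few of the lineage genes differed between the groups. Of the 43 genes, 19 were expressed and 24 lay at the floor, and 1 changed, Lhx2, which rose. That is 2.33% of the members, against 4.67% of all 18193 genes (2.7% rose and 1.97% fell). Among the 19 expressed members 0 changed, against 6.53% of all expressed genes. In limma, 3 of these 19 had an unadjusted p under 0.05, against 25.0% of all expressed genes and 18.5% of all genes, and over the processing alternatives 0 to 5 of the 43 passed. Of the 24 floor members 1 changed, against 1.3% of all genes at the floor. The median difference of the 43 genes was 0.01, the same as that of all genes (0.01), and 24 members were higher and 19 lower. The median size of a difference was 0.11, beside 0.13 over all genes.

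Calls depended on how the array differences were treated, for all genes as for the members. The share of all genes called was 8.62% with a block for the spike-in batch, 11% with the fibroblast level as a covariate, 11.3% with array weights and 5.12% in the 4 spike-low arrays. It was 2.56% with the replicate number as a block, 4.56% after quantile normalisation, 4.74% after median centring, 4.64% without cross-hybridising probe sets, 4.51% with a trended and robust variance, 4.77% with the mean of all probe sets and 7.27% of genes left after dim probe sets were dropped. Without wild-type replicate 1, 2 or 3 it was 2.8%, 1.32% and 6.55%, and without truncated replicate 1, 2 or 3 it was 0.709%, 2.76% and 0.951%. Members that passed under these settings are read against these shares. The settings use the same arrays and are not independent. The spike-in block, the 4 spike-low arrays and the fibroblast covariate all act on the pair that was spike-high and lowest in fibroblast markers.

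**Figure D1:**
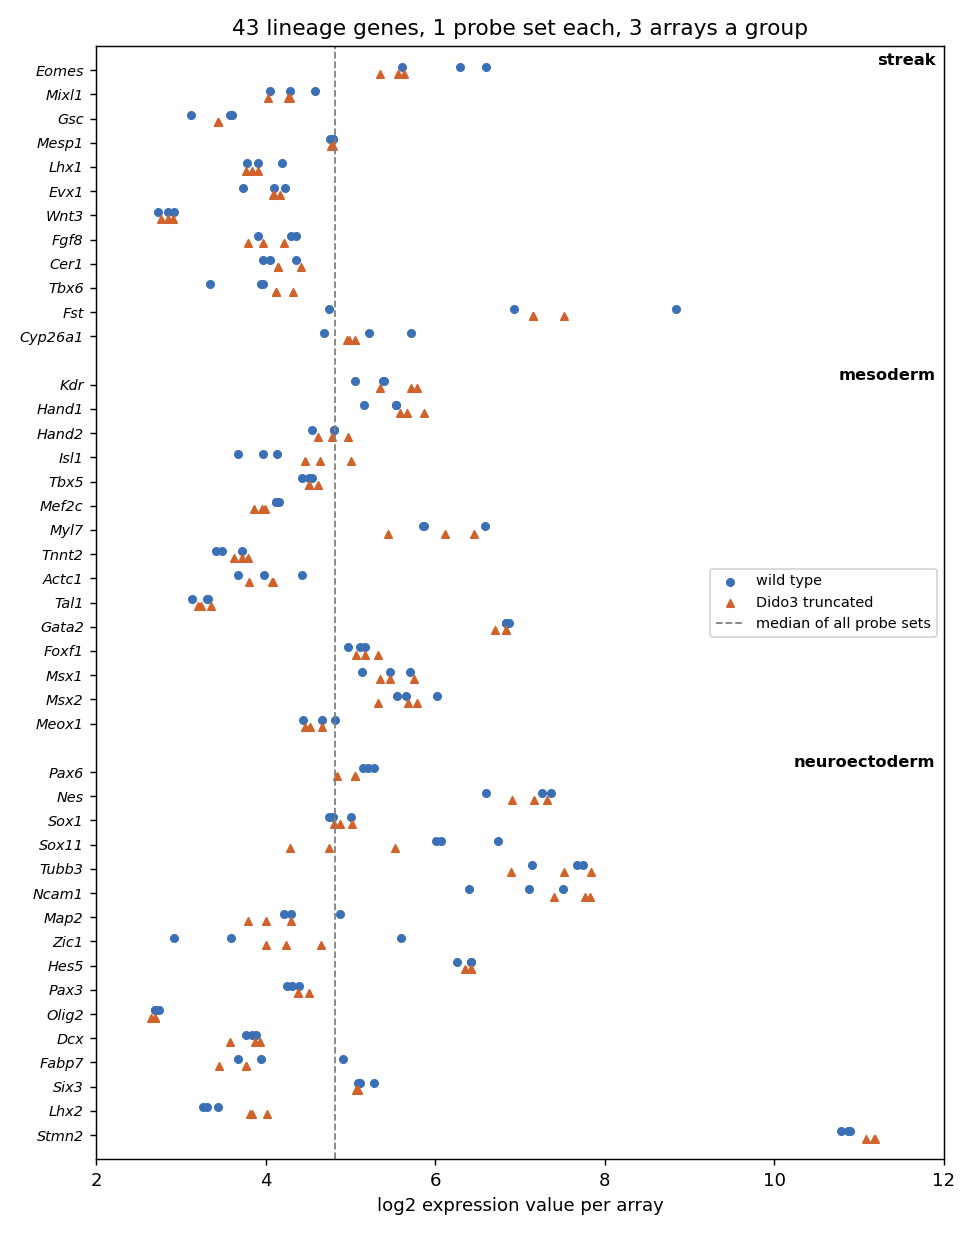
Log2 expression values of the 43 genes, 1 probe set each, on 3 wild-type (circles) and 3 Dido3-truncated arrays (triangles), with a dashed line at 4.82, the median of all probe sets. The groups stand fully apart for 8 of the 43 genes, 24 lie on average below the line, and Fst and Zic1 spread widely within the wild-type arrays.

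The 95% interval of the difference stayed within a 2-fold change in either direction for 36 of the 43 genes, or 83.7%, against 89.7% of all genes. Of these 36, 15 were among the 19 expressed genes and 21 among the 24 at the floor, where signal near background keeps differences small and the interval does not bound the change in RNA. The 7 exceptions were Eomes, Fst, Isl1, Sox11, Ncam1, Zic1 and Fabp7. The truncated arrays lay wholly above or below the wild-type arrays for 8 of the 43 genes, or 18.6%, against 22.4% of all genes (11.6% above and 10.9% below). These were Tbx6, Hand1, Isl1, Lhx2 and Stmn2 above and Mef2c, Pax6 and Sox11 below.

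**Figure D2:**
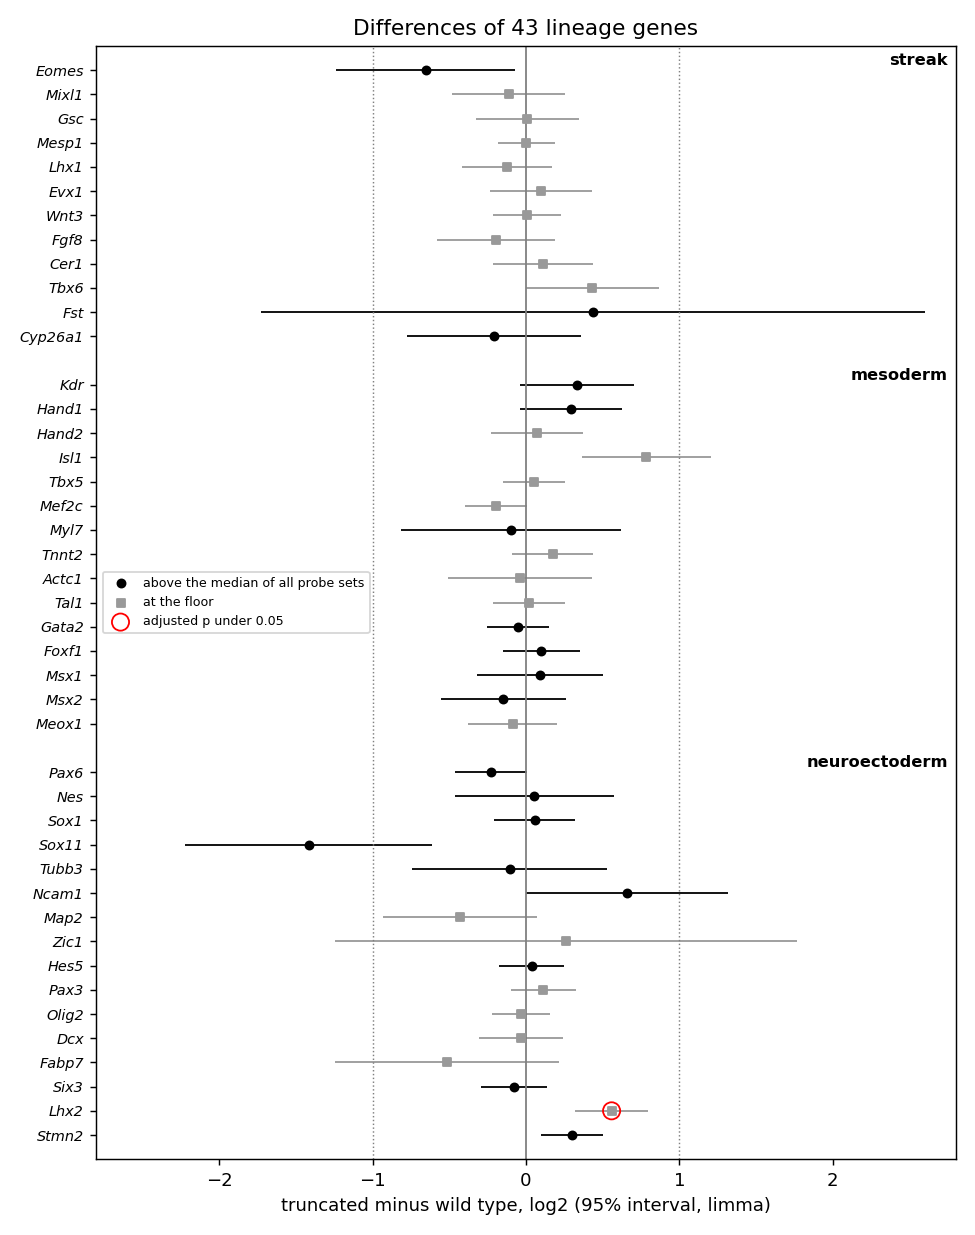
Difference of each gene, truncated minus wild type, on the log2 scale with its 95% interval from limma, with dotted lines at a 2-fold change. The interval of 36 genes lies between the dotted lines, Sox11 at −1.42 is the farthest from 0, and the circled Lhx2 at 0.56 is the gene that passed.

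Of the 12 streak genes, 3 were expressed and none changed, with 2 at an unadjusted limma p under 0.05, against 18.5% of all genes. Eomes, the T-box factor that drives mesoderm and endoderm formation at the streak, read 6.60, 6.29 and 5.60 on wild-type and 5.56, 5.34 and 5.63 on truncated arrays. Wild-type replicates 1 and 2 were above all truncated arrays, and wild-type replicate 3 fell among them. The difference was −0.65 (SE 0.25; limma adjusted p = 0.220), with a 95% interval from −1.24 to −0.07. A second Eomes probe set, 1426001_at, differed by −0.56 (limma adjusted p over all probe sets = 0.498). In the 4 spike-low arrays Eomes differed by −0.85 and passed (limma adjusted p = 0.0440), and in the spike-high pair by −0.26. Without wild-type replicate 3 it also passed (−0.93, limma adjusted p = 0.0174), as it did with array weights (0.0296) and with the fibroblast level as a covariate (0.00905). Eomes passed in 4 of 17 alternatives, where its limma adjusted p ran from 0.00905 to 0.447.

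Fst encodes follistatin, a secreted inhibitor of activin, and was the streak gene that varied most among arrays. It read 8.84, 6.93 and 4.74 on wild-type and 7.52, 7.15 and 7.15 on truncated arrays. The wild-type values fell on both sides of the tight truncated values, with wild-type replicate 3, the array poorest in fibroblast RNA, the lowest. The difference was 0.44 (SE 0.91; limma adjusted p = 0.878), with a 95% interval from −1.73 to 2.60. It turned to −0.61 without wild-type replicate 3 and to −0.55 in the 4 spike-low arrays. Its second probe set, 1421365_at, gave 7.81, 6.12 and 5.05 on wild-type and 6.58, 6.17 and 6.18 on truncated arrays, a difference of −0.02. Fst was on average 1.66 lower in the spike-high pair than in the other 4 arrays, a gap of over 1 log2 unit that 2 of the 43 members showed, Fst and Zic1. Of all genes, 1.25% had such a gap, and of the fibroblast markers 79.2%. Within the groups the Fst gap was −3.15 for wild type and −0.18 for the truncated group, so it came from wild-type replicate 3. The part of fibroblast RNA in the values of Fst was not tested. Cyp26a1, which degrades retinoic acid, read 5.21, 5.71 and 4.68 on wild-type and 4.97, 4.96 and 5.05 on truncated arrays, and differed by −0.21 (limma adjusted p = 0.746).

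The other 9 streak genes lay at the floor in both groups. These included Mixl1, Gsc and Lhx1, homeobox genes of the streak and its anterior derivatives, the bHLH gene Mesp1 of cardiac mesoderm progenitors, the ligand genes Wnt3 and Fgf8, and Cer1, which encodes a secreted antagonist of Nodal, BMP and Wnt. Their differences ran from −0.19 to 0.43, values near background that do not bound a change in RNA. The upper end was Tbx6, the T-box gene of presomitic mesoderm, which read 3.94, 3.34 and 3.97 on wild-type and 4.12, 4.32 and 4.12 on truncated arrays. Its truncated values were all higher, at a limma adjusted p of 0.268. Mesp1 was at 4.78 ± 0.02 and 4.78 ± 0.01 (SD, n = 3 each), a difference of 0.00.

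Of the 15 mesoderm genes, 7 were expressed and none changed. In limma 1 had an unadjusted p under 0.05, and it was the LIM-homeodomain gene Isl1, a regulator of cardiac progenitors and motor neurons. Isl1 lay at the floor on average, and it is singled out here after its values were seen. Its representative probe set, 1422720_at, read 3.96, 3.67 and 4.13 on wild-type and 4.47, 5.0 and 4.64 on truncated arrays. Every truncated array was above every wild-type array, and truncated replicate 2 alone exceeded 4.82. The difference was 0.78 (SE 0.18; limma adjusted p = 0.0590), with a 95% interval from 0.36 to 1.21. The second probe set, 1450723_at, differed more: it read 2.74, 3.25 and 3.28 on wild-type and 4.23, 5.25 and 4.23 on truncated arrays, a difference of 1.48 (limma adjusted p over all probe sets = 0.0567). Both probe sets passed with a block for the spike-in batch, at limma adjusted p of 0.0168 and 0.0140 over all probe sets. At the level of genes Isl1 passed in 6 of 16 alternatives, among them the fit without wild-type replicate 3 (0.89, limma adjusted p = 0.0408), and its adjusted p ran from 0.0135 to 0.184. It differed by 0.74 in the 4 spike-low arrays and by 0.87 in the spike-high pair.

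The 7 expressed mesoderm genes differed by −0.15 to 0.33. Kdr, the VEGF receptor that marks haemangiogenic mesoderm, read 5.05, 5.39 and 5.40 on wild-type and 5.78, 5.34 and 5.71 on truncated arrays (difference 0.33, limma adjusted p = 0.324). Hand1, a bHLH gene of lateral mesoderm and trophoblast, read 5.53, 5.53 and 5.16 against 5.66, 5.58 and 5.86 (difference 0.29, limma adjusted p = 0.336), with the truncated values all higher by a margin under the spread of either group. A second Hand1 probe set, 1417525_at, differed by −0.16. The homeobox gene Msx2, a target of BMP signalling, read 6.02, 5.55 and 5.65 on wild-type and 5.32, 5.68 and 5.78 on truncated arrays, a difference of −0.15 (limma adjusted p = 0.746). Foxf1, a forkhead gene of lateral plate mesoderm, read 5.17, 4.97 and 5.11 against 5.17, 5.32 and 5.07 (difference 0.10, limma adjusted p = 0.717). The group ranges of Kdr, Msx2 and Foxf1 overlapped.

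None of the blood and muscle genes passed. Gata2, a zinc finger gene of blood progenitors, was at 6.85 ± 0.02 and 6.79 ± 0.08 (SD, n = 3 each), and Tal1, a bHLH gene needed for blood formation, at 3.25 ± 0.11 and 3.27 ± 0.08. The second Gata2 probe set, 1428816_a_at, lay at the floor, with group means of 4.80 and 4.71. The atrial myosin light chain gene Myl7 was at 6.10 ± 0.42 and 6.0 ± 0.52, the cardiac actin gene Actc1 at 4.03 ± 0.38 and 3.98 ± 0.16, and the cardiac troponin gene Tnnt2 at 3.54 ± 0.16 and 3.71 ± 0.08. Mef2c, a MADS-box gene of muscle, was at 4.13 ± 0.02 and 3.93 ± 0.07, with the truncated values all lower (limma adjusted p = 0.282); 4 of its 5 probe sets were lower and 1 higher. Hand2, Tbx5, Meox1 and Msx1 differed by 0.07, 0.05, −0.09 and 0.09. The gap between the spike-high pair and the other 4 arrays was over 1 log2 unit in 0 of the 15 mesoderm genes.

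Of the 16 neuroectoderm genes, 9 were expressed, Lhx2 rose while staying at the floor, and the farthest difference of all 43 genes was that of Sox11. Sox11 is a SOXC transcription factor gene of neural progenitors and immature neurons. Its representative probe set, 1436790_a_at, read 6.0, 6.06 and 6.74 on wild-type and 4.28, 5.53 and 4.75 on truncated arrays. All 3 truncated arrays were below all 3 wild-type arrays, and in each group the array poorest in fibroblast RNA was the highest. The difference was −1.42 (SE 0.34), 2.67-fold lower, with a 95% interval from −2.22 to −0.61, and it missed the threshold (limma adjusted p = 0.0695). All 6 Sox11 probe sets were lower in the truncated arrays, by −0.25 to −1.42; these probe sets read the same 6 RNA samples and are not independent.

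Sox11 differed by −1.52 in the 4 spike-low arrays and by −1.21 in the spike-high pair. It passed with that split as a block (limma adjusted p = 0.00544), in the 4 spike-low arrays (0.0270) and with the fibroblast level as a covariate (0.0112). It also passed with array weights (limma adjusted p = 0.0173) and without truncated replicate 2 (−1.75, 0.0418). Its adjusted p ran from 0.00544 to 0.236 over 17 alternatives, 5 of which called it. At the level of probe sets and with that block, 3 of the 6 passed: 1436790_a_at, 1453125_at (−0.84, limma adjusted p = 0.0115) and 1429372_at (−0.75, limma adjusted p = 0.0269). The groups overlapped for 1453125_at. At the floor lay 1429372_at, with a mean of 3.50 over all arrays, and 1453002_at (4.54), which did not pass, so their differences are near background. With that block 3 of the 43 members passed, against 8.62% of all genes: Sox11, Isl1 and Lhx2.

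Lhx2, a LIM-homeodomain gene of the eye field and forebrain, was the member that changed. Its single probe set, 1418317_at, read 3.30, 3.25 and 3.43 on wild-type and 3.81, 3.84 and 4.02 on truncated arrays. The groups did not overlap, but all 6 values lay below 4.82, so the size of the rise is against background. It rose by 0.56 (SE 0.10; 1.47-fold), with a 95% interval from 0.32 to 0.80 and a limma adjusted p of 0.0314. It passed in 9 of 16 alternatives. The call was lost without wild-type replicate 1 (limma adjusted p = 0.0810), wild-type replicate 2 (0.120), truncated replicate 1 (0.106), truncated replicate 2 (0.0690) or truncated replicate 3 (0.120), with differences of 0.49 to 0.60, and in the 4 spike-low arrays (0.63, 0.0514). It held without wild-type replicate 3 (0.0262).

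**Figure D3:**
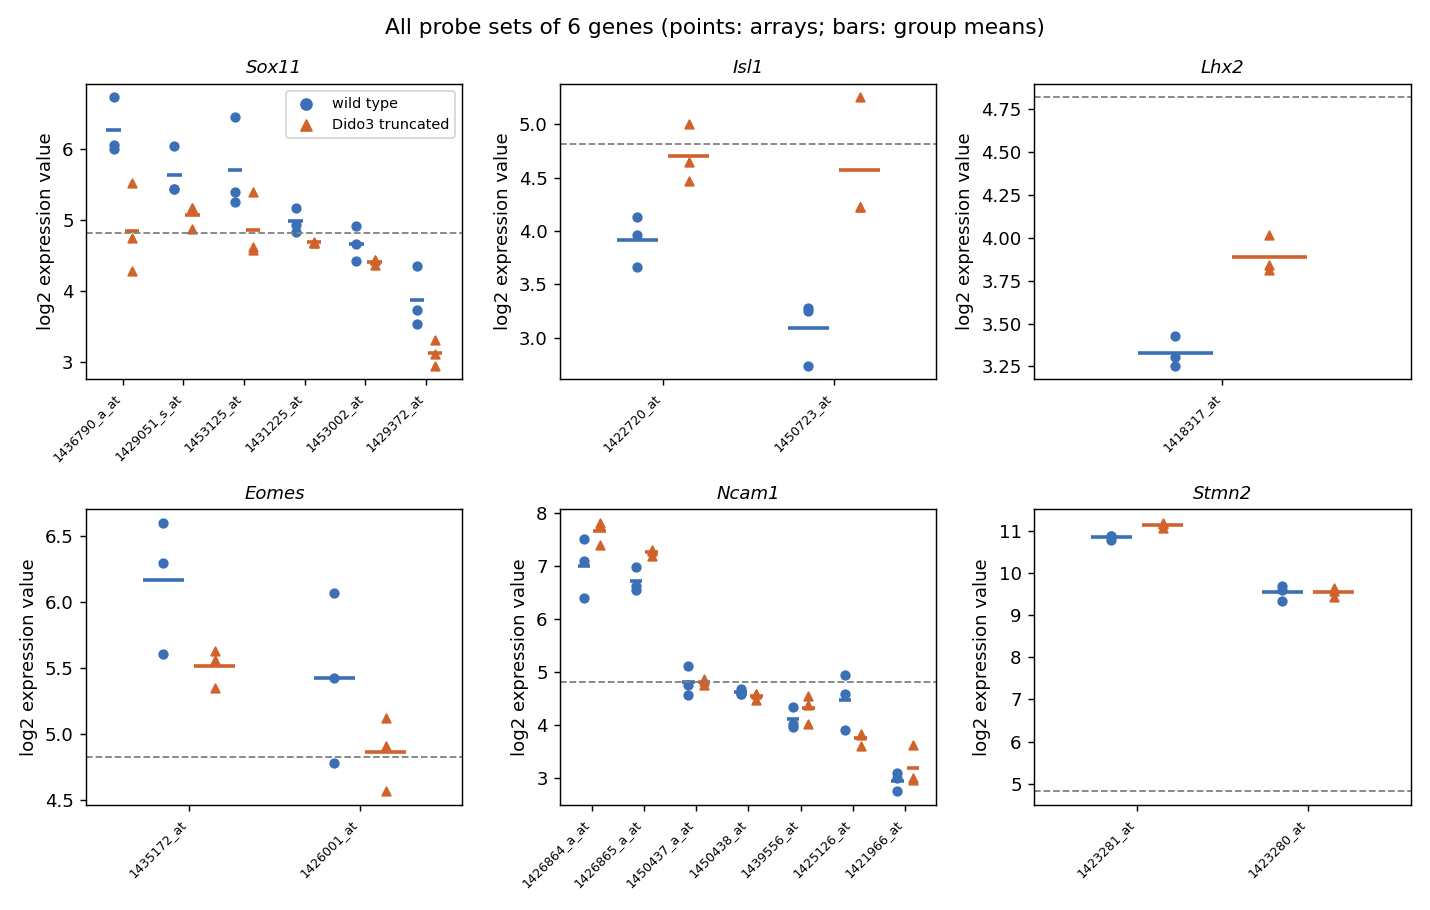
Log2 expression values of every probe set of Sox11, Isl1, Lhx2, Eomes, Ncam1 and Stmn2 on each array (circles, wild type; triangles, Dido3 truncated; short bars, group means; dashed line, 4.82). All 6 Sox11 probe sets have a lower truncated mean, both Isl1 probe sets have higher truncated values, and the Ncam1 probe sets go in different directions.

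Lhx2 was the changed member, and the calls of Sox11, Isl1 and Eomes depended on how the spike-high pair was treated. The promoters of these genes are shown. Each is the stretch of 250 bases before the annotated start, 5′ to 3′ on the strand of the gene, from RefSeq on the mouse build GRCm38.p6, with CG dinucleotides in capitals. They lie at chr12:27342719-27342968 (minus strand) for Sox11, chr13:116309689-116309938 (minus) for Isl1, chr2:38339031-38339280 and chr2:38351058-38351307 (both plus) for the 2 annotated starts of Lhx2, and chr9:118477939-118478188 (plus) for Eomes.
Sox11: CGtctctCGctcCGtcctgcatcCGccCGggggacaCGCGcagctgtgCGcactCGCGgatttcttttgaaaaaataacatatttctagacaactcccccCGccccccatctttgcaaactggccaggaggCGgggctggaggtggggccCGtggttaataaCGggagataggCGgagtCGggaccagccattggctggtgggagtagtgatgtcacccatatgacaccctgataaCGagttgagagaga
Isl1: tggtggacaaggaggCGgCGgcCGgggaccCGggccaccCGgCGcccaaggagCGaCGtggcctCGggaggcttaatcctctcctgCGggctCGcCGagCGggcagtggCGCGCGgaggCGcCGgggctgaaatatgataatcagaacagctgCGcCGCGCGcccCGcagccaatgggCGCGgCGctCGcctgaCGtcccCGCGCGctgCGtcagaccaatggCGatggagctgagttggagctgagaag
Lhx2, first start: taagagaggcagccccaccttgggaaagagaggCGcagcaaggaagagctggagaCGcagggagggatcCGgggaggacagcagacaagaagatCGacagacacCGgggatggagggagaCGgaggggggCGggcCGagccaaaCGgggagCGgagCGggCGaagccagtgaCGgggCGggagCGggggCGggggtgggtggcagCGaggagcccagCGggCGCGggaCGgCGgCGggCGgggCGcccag
Lhx2, second start: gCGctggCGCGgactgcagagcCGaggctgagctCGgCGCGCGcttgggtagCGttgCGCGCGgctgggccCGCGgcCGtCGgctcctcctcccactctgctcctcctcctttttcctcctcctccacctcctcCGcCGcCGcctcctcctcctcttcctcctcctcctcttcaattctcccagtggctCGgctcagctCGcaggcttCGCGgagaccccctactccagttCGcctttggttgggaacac
Eomes: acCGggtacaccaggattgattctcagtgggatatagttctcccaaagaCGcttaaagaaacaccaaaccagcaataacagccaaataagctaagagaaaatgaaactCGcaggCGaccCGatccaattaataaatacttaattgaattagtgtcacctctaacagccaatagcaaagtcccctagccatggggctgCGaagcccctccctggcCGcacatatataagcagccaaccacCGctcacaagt
The Isl1 window holds 33 CG dinucleotides, those of Lhx2 25 and 24, that of Sox11 17 and that of Eomes 8. The median over 32851 such windows of 27025 genes was 6. Promoter windows were found for 33 of the 43 members, 41 windows in all, with a median of 15 CG dinucleotides. It was 16.5 in the 16 windows of expressed members and 6 in the 25 of floor members, where it ran from 0 (Tnnt2) to 34 (Map2). The TATA box letters TATAAA, searched on both strands, stood in 0 of the 16 windows of expressed members, 7 of the 25 of floor members and 12.4% of all windows. Windows of the same gene were counted separately, and Mef2c and Dcx each gave more than 1 of the windows with TATAAA. The homeodomain core TAATTA, a palindrome, was in 7 of the 41 member windows (17.1%) and 4.84% of all windows, and in none of the 5 printed. The octamer ATGCAAAT, searched on both strands, was in 1 member window, that of Evx1, and 1.6% of all windows. Both TAATTA and TATAAA were present in the overlapping windows of the 2 Dcx starts, which share most of their bases. Such matches describe these letters and this window only.

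Ncam1, the neural cell adhesion molecule gene, read 7.10, 7.51 and 6.40 on wild-type and 7.76, 7.40 and 7.82 on truncated arrays with its representative probe set, 1426864_a_at. Truncated replicates 1 and 3 were above all wild-type arrays and truncated replicate 2 fell among them. The difference was 0.66 (SE 0.28; limma adjusted p = 0.273). The second brightest probe set, 1426865_a_at, read 6.55, 6.99 and 6.63 against 7.29, 7.19 and 7.31, higher in all truncated arrays (0.54, limma adjusted p over all probe sets = 0.0881). Another, 1425126_at, went the other way at the floor: 4.59, 4.95 and 3.90 on wild-type against 3.83, 3.59 and 3.81 on truncated arrays (−0.73, limma adjusted p over all probe sets = 0.228). Of the 7 Ncam1 probe sets, 5 were higher and 2 lower. Which Ncam1 isoforms each of them reads was not analysed here. Ncam1 passed at the gene level in 1 of 17 alternatives, with the fibroblast level as a covariate (0.64, limma adjusted p = 0.0303).

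Stmn2 encodes stathmin-2, a microtubule regulator known from neurons, and was bright on all arrays. It read 10.87, 10.89 and 10.79 on wild-type and 11.17, 11.19 and 11.08 on truncated arrays with 1423281_at. The groups did not overlap, and the difference of 0.30 (SE 0.09) was larger than the spread within either group but missed the threshold (limma adjusted p = 0.113). The other probe set, 1423280_at, read 9.70, 9.60 and 9.33 against 9.58, 9.63 and 9.44, a difference of 0.01. Stmn2 passed in 0 of 17 alternatives, where its adjusted p ran from 0.0692 to 0.456.

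None of the early neural genes passed. Pax6, a paired-box gene of the neural tube and eye, read 5.28, 5.20 and 5.15 on wild-type and 5.05, 4.84 and 5.05 on truncated arrays, with the truncated values all lower (−0.23, limma adjusted p = 0.290). Of its 5 probe sets 2 were lower and 3 higher, and their mean differed by 0.038. Sox1, the earliest marker of neural plate, was at 4.84 ± 0.14 and 4.90 ± 0.11 (SD, n = 3 each), and Nes, the intermediate filament gene nestin, at 7.07 ± 0.42 and 7.13 ± 0.21. Hes5, a Notch target of neural progenitors, was at 6.36 ± 0.09 and 6.40 ± 0.04, and Six3, a homeobox gene of the anterior neural plate, at 5.16 ± 0.10 and 5.08 ± 0.01. Tubb3, neuronal beta-tubulin, read 7.74, 7.67 and 7.14 on wild-type and 7.51, 7.83 and 6.89 on truncated arrays, with overlapping groups and a difference of −0.11 (limma adjusted p = 0.902).

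Apart from Lhx2, 6 neuroectoderm genes lay at the floor. Zic1, a zinc finger gene of dorsal neural tube and somites, is singled out after its values were seen, for its spread. It read 5.60, 3.59 and 2.92 on wild-type and 4.23, 4.00 and 4.65 on truncated arrays, with the lowest value on wild-type replicate 3. The difference was 0.26 (limma adjusted p = 0.900). It was 1.06 lower in the spike-high pair than in the other 4 arrays, and its difference was −0.15 in those 4 and 1.08 in the pair. Within the groups that gap was −1.67 for wild type and −0.44 for the truncated group. The second Zic1 probe set, 1439627_at, had a gap of −0.37 and differed by −0.15 between the groups. The part of fibroblast RNA was not tested. Map2, a dendritic microtubule protein gene, and Fabp7, a radial glia gene, differed by −0.43 and −0.52 with limma adjusted p of 0.352 and 0.459. Pax3, Olig2 and the neuroblast gene Dcx, for a microtubule-associated protein, differed by 0.11, −0.03 and −0.04.

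**Figure D4:**
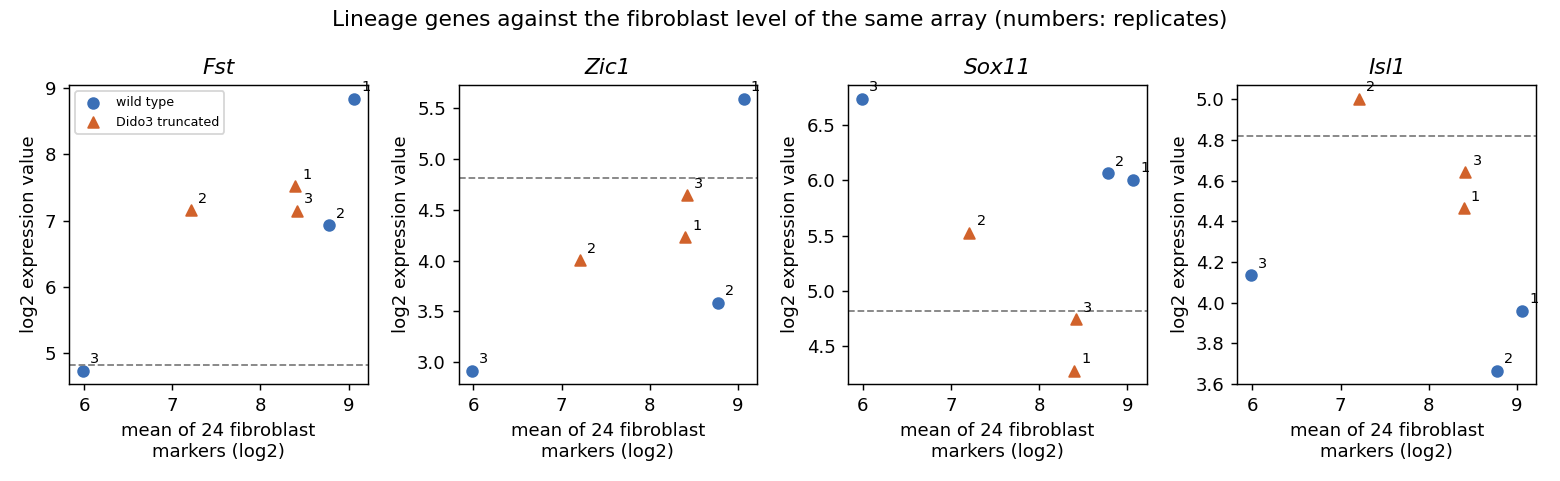
Log2 expression values of Fst, Zic1, Sox11 and Isl1 on each array against the mean of 24 fibroblast markers on the same array (circles, wild type; triangles, Dido3 truncated; numbers, replicates; dashed line, 4.82). Fst and Zic1 are lowest on wild-type replicate 3, at a fibroblast level of 5.98, while Sox11 is highest there.

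Other probe sets were used as a check on the member genes. The 43 genes had 93 probe sets, of which 1 passed over all probe sets (that of Lhx2), against 2.8% of all 45037 probe sets. In limma, 15 of the 93 (16.1%) had an unadjusted p under 0.05, against 15.2% of all probe sets. For 17 genes there was a single probe set. Of the other 26, all probe sets of the gene had the same direction in 12 and directions were mixed in 14. Genes with 1 direction throughout included Eomes, Isl1, Sox11, Gata2, Foxf1, Msx1, Msx2, Nes, Sox1 and Stmn2.

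The wider lineage programmes were read with 2 further lists, of 30 streak and mesoderm genes and 39 neuroectoderm genes with a probe set. Of the 30, 2 rose and 1 fell, or 10% against 4.67% of all genes. Nodal, the ligand that induces the streak, went up from 9.58 ± 0.13 to 10.08 ± 0.06 (SD, n = 3 each; limma adjusted p = 0.0413), as did its second probe set, 1422057_at (0.78, limma adjusted p over all probe sets = 0.0282), and Gata1, an erythroid factor, rose from 5.11 ± 0.10 to 5.66 ± 0.11 (limma adjusted p = 0.0346). Tcf15, a bHLH gene of the epiblast and paraxial mesoderm, fell from 8.71 ± 0.22 to 8.0 ± 0.17 (limma adjusted p = 0.0455). Gata1 and Tcf15 each had a single probe set, and that of Tcf15 missed the threshold over all probe sets (limma adjusted p = 0.0565). The other 27 did not pass; among them Foxa2, Mesp2, Msgn1 and Nkx2-5 differed by 0.02, 0.20, 0.01 and −0.05. Sp5, a Wnt target of the streak given after its values were seen, read 7.14, 5.68 and 4.80 on wild-type and 4.57, 4.80 and 4.64 on truncated arrays (−1.2, limma adjusted p = 0.292).

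Of the 39 further neuroectoderm genes, 1 rose and 1 fell, or 5.13%. Nefm, the neurofilament medium chain gene, rose by 2.59 (SE 0.22; limma adjusted p = 0.00361). Its single probe set, 1422520_at, read 4.07, 3.57 and 3.51 on wild-type and 6.51, 5.91 and 6.52 on truncated arrays, from below to above 4.82. Zic5, a zinc finger gene of the neural plate and of primed stem cells, fell by 1.21 (SE 0.19), from 7.61 ± 0.08 to 6.40 ± 0.39 (limma adjusted p = 0.0205). Its second probe set, 1456140_at, fell by 1.12 (limma adjusted p over all probe sets = 0.0208). Nefm passed whichever array was left out. The calls of Nodal, Gata1 and Tcf15 were lost without each array other than wild-type replicate 3, and that of Zic5 without wild-type replicate 1 or 2 or truncated replicate 1 or 3. The other 37 did not pass. Among them the neural genes Sox3, Otx2 and Pou3f2 differed by −0.02, 0.00 and 0.04. Otx2 differed by 0.53 in the 4 spike-low arrays and by −1.04 in the spike-high pair. Larger differences, given after their values were seen, were those of Ina (−1.19, limma adjusted p = 0.154), Nefl (0.70), Pou3f1 (−0.55) and Gbx2 (−0.48). Ina passed with the replicate block, with array weights, in the 4 spike-low arrays and without wild-type replicate 3. It differed by −1.84 in the 4 spike-low arrays and by 0.11 in the spike-high pair. Gbx2 passed in the 4 spike-low arrays, at −1.15, and differed by 0.85 in the pair. Nefl passed with the fibroblast covariate and differed by 0.25 in the 4 arrays and 1.59 in the pair. Pou3f1 passed with array weights and differed by −0.83 in the 4 arrays and 0 in the pair. The median difference was 0.04 for the first list and 0.06 for the second.

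**Figure D5:**
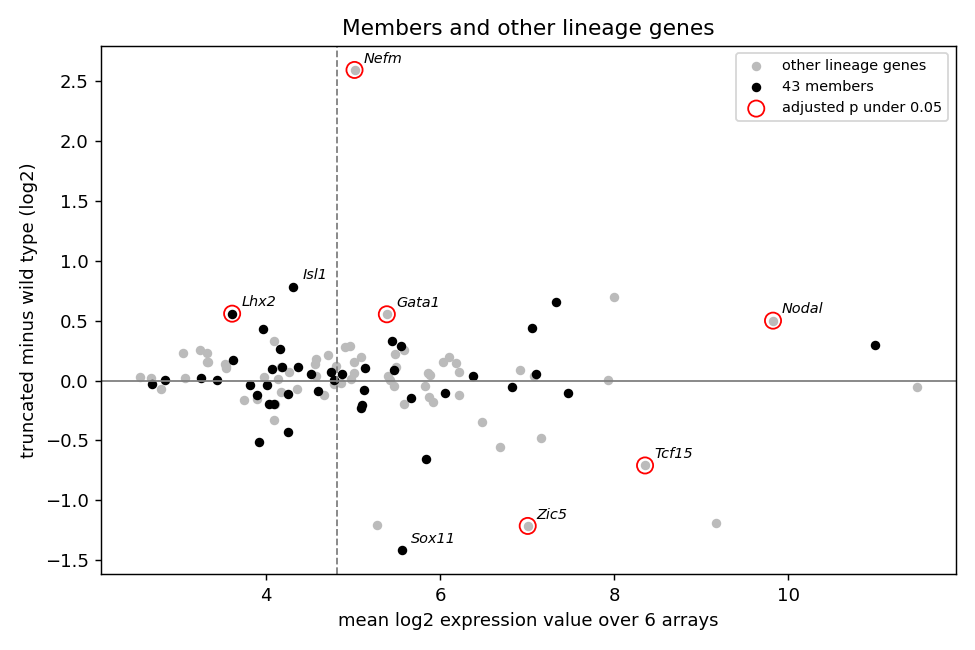
Difference between the groups (log2, truncated minus wild type) against the mean log2 expression value over 6 arrays, for the 43 genes (black) and the 69 other lineage genes (grey), with genes past the limma threshold circled and a dashed line at 4.82. Most points lie near 0 at every level, with Nefm at 2.59 and Sox11 at −1.42 the farthest apart.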

How the data were processed

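The 6 Affymetrix mouse arrays were used as the authors' deposited log2 expression values per probe set; the summarisation and normalisation are not given in the sources used here, and that the scale is log2 was judged from the values. Array medians lay between 4.80 and 4.86. Of 45101 probe sets, 64 controls were left out. Symbols came from the platform annotation, 932 probe sets with several symbols were not used for genes, and all 147 listed genes measured kept their symbol in the RefSeq table of GRCm38.p6. Each gene was read by its probe set of highest mean over the 6 arrays. Groups were compared by linear models with moderated variances (limma 3.58.1, R 4.3.3), two-sided, with Benjamini-Hochberg adjustment over all 18193 genes or all 45037 probe sets. The fit was tested on simulated arrays. No list of lineage genes was tested as a set. The per-array means of the fibroblast and stem cell marker lists were compared between groups by an exact permutation test. Arrays with high spike-in controls were those whose mean of 24 poly-A probe sets lay over 2 log2 units above the median array.

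The members and lists were chosen with earlier results of these data known. Members were named with all values when they passed, when another probe set passed, when among the 12 expressed members with the largest differences, or when expressed and differing by over 1 between arrays with high and low spike-in controls; of the other lists, members past the threshold. Isl1, Zic1, Tbx6, Sp5 and the genes given for comparison fall outside that rule. Alternatives were the replicate number or the spike-in batch as a block, quantile normalisation, median centring, filters on dim or cross-hybridising probe sets, other variance models, array weights, the mean of all probe sets, the fibroblast level as a covariate, the 4 spike-low arrays, and each array left out. The number of arrays limits the precision. Plots were drawn with matplotlib 3.10.9.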

Additional observations from a re-analysis of the deposited data

How the results depend on the processing

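The count of 1 member changed became 0 with the replicate block. It was also 0 with dim probe sets left out, a filter that removed Lhx2 before the fit and so did not test its call. The count was 2 with a trended and robust variance or with the mean of all probe sets (Isl1 and Lhx2 in both). It was 2 in the 4 spike-low arrays (Eomes and Sox11), 3 with a block for the spike-in batch and 4 with array weights. It was 5 with the fibroblast covariate and 0 to 3 with each array left out. The matching counts of member probe sets were 0 (dim left out), 2 (trended), 2 (4 arrays), 6 (block), 5 (weights), 10 (covariate) and 0 to 3. Over all genes, 850 changed, against 466 with the replicate block, 2057 with array weights, 1569 with the spike-in block, 2004 with the covariate and 129 to 1191 with each array left out; the cause was not tested. Of the further lineage genes 5 changed, 3 with the replicate block (Ina, Zic5 and Nefm, so Nodal, Gata1 and Tcf15 did not pass), 3 with quantile normalisation (Zic5, Gata1 and Nefm) and 1 to 6 with each array left out. The replicate numbers did not pair the samples: same-numbered deviations correlated at 0.29, −0.36 and −0.13, and under the block Lhx2 did not pass (limma adjusted p = 0.0676). The count of 19 expressed members stayed at 19 when either group mean had to pass the limit. It was 13 with the 60th percentile, 5.46, as the limit. Under that limit Cyp26a1, Kdr, Foxf1, Pax6, Sox1 and Six3 were no longer expressed. Signs turned for Fst in the 4 arrays (−0.55), Zic1 there (−0.15) and Pax6 in the mean of its probe sets (0.038). With each array left out, differences ran from −0.61 to 1.44 for Fst, −0.30 to 1.04 for Zic1, −0.47 to 0.046 for Cyp26a1 and −0.32 to 0.15 for Tubb3. Of 252 comparisons of 15 named members with an alternative, 221 kept direction and side of the threshold, 16 newly passed, 7 lost the call (all Lhx2) and 8 turned. Signal near background limits the 24 floor members, whose true levels may be lower than shown.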

Other observations

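Some of the further neural genes differed more between the spike-high pair and the other 4 arrays than between the groups, and are given after their values were seen. The pair is also the poorest in fibroblast markers, and neither was tested as a source. Neurod1, a bHLH gene of neuronal differentiation, read 5.75, 5.52 and 8.67 on wild-type and 5.50, 7.30 and 6.12 on truncated arrays. It was highest in each group on the array poorest in fibroblast RNA, and 2.26 higher on that pair than on the other 4. A second Neurod1 probe set, 1426413_at, gave the same gap at 2.43. Irx3, a homeobox gene of neural tube and limb mesenchyme, went the other way, at 7.20, 6.15 and 4.53 on wild-type and 6.21, 5.52 and 6.61 on truncated arrays. Between the groups, Neurod1 and Irx3 differed by −0.34 and 0.15 (limma adjusted p = 0.904 and 0.947).

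The neurofilament light chain gene Nefl had 2 probe sets that differed in call. The brighter, 1426255_at, read 8.53, 8.10 and 6.31 on wild-type and 8.43, 7.90 and 8.70 on truncated arrays, with overlapping groups (0.70, limma adjusted p over all probe sets = 0.658). The second, 1454672_at, rose from 6.42, 5.98 and 5.70 to 7.0, 7.12 and 7.41 (1.14, limma adjusted p over all probe sets = 0.0361).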
